A study of Mus musculus with 4 samples.

Results

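The receptors through which the secreted protein DKK2 and Wnt ligands act on a cell were measured as transcripts in mouse natural killer (NK) cells. The 10 genes are those of the co-receptors LRP5 and LRP6, the Kremen proteins (Kremen1, Kremen2), the Frizzled receptors Fzd1, Fzd4, Fzd5, Fzd6 and Fzd7, and the Wnt receptor Ryk. They were chosen by symbol, and each symbol stood on 1 row of a table of 37305 rows. Primary NK cells came from spleens of C57BL/6 mice at postnatal day 56, with no genetic alteration named in the labels. For the first 24 hours all cells were held in IL-15 (recombinant murine, 50 ng/ml), a growth factor of NK cells. The DKK2 group (2 libraries) was then kept for 24 hours with DKK2 at 200 ng/ml, and the control group (2 libraries) for the same time with mock treatment. Nothing in the sources used here says whether the replicates came from separate animals or cultures, so a p-value here reflects library-to-library spread alone, possibly technical.

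Wnt proteins bind a Frizzled receptor together with LRP5 or LRP6, which stabilises beta-catenin, a protein that then acts in the nucleus with TCF and LEF factors. Dickkopf proteins such as DKK2 bind LRP5 and LRP6 and compete with this assembly, and the Kremen proteins are further Dickkopf receptors that promote removal of LRP6 from the cell surface. RYK is a single-pass receptor that binds Wnt through a domain of its own.

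Values are FPKM, that is fragments scaled to transcript length and library size, so levels can be compared between genes only approximately. Each library had 18951 to 20549 rows above 0. Read from the steps between low values, depth was greatest in control replicate 1, with 0.351 to 0.401 of it in the other 3. All 10 NK markers were present in every library. Their summed levels were 35951 and 22494 FPKM in the DKK2 libraries and 26305 and 27225 FPKM in mock-treated cells. These sums rested mostly on Gzma and Gzmb. Gzma alone gave 24308 and 12092 FPKM in DKK2-treated cells, against 9890 and 13351 FPKM in mock-treated cells. Gzmb and Prf1 were lower in both DKK2 libraries than in both controls, and the other NK markers overlapped between the groups. Control replicate 1 stood apart by low levels of markers of other cells. Of 56 markers of other cell types, 47 were lowest there, and 17 were listed at 0 there against 2 to 4 in each other library. The summed markers of T cells, monocytes and macrophages, neutrophils and dendritic cells were higher in both DKK2 libraries than in both controls. For T cells the sums were 225 and 179 FPKM in DKK2-treated cells, against 28.7 and 130 FPKM in mock-treated cells. For dendritic cells they were 4.34 and 4.02 FPKM, against 2.75 and 3.83 FPKM. Single markers of T cells, of dendritic cells and of monocytes and macrophages were split. Emr1 and Cd14 of monocytes and macrophages were lower in DKK2 replicate 1 than in control replicate 2. The other markers of monocytes and macrophages were higher in both DKK2 libraries than in both controls. Of the T cell markers, Cd3d, Cd3e, Cd3g and Cd6 separated the groups this way. Most of the T cell sum came from Cd3g (169 and 117 FPKM, against 23.1 and 87.3 FPKM). Cd4, Cd5, Cd8a and Cd8b1 were lower in DKK2 replicate 1 than in control replicate 2. Among dendritic cell markers Flt3 separated the groups, and Clec9a, Siglech, Zbtb46, Batf3 and Cd209a did not. An exact 0 can be a failed estimate, which was not tested. Comparisons between genes need care, as even the glycolysis gene Gapdh is listed at only 1.55 to 1.9 FPKM.

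Of the receptors, 5 were detected at a mean of at least 1 FPKM, in the order Lrp6, Fzd5, Kremen1, Ryk and Fzd6, and 5 lay below it, in the order Fzd1, Lrp5, Fzd7, Kremen2 and Fzd4. Lrp6 was the highest of the 10 in every library, and its range over the 4 libraries did not overlap that of Fzd5, the next in the order. Each other pair of neighbours had overlapping ranges. Fzd5 was nevertheless above Kremen1 in 4 of 4 libraries, and Fzd6 above Fzd1 in 4 of 4, while Kremen1 was above Ryk, and Ryk above Fzd6, in 3 of 4. From Fzd1 downward each gene was above the next in 2 of 4 libraries, so the order of the 5 lowest receptors is not resolved.

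**Figure D1:**
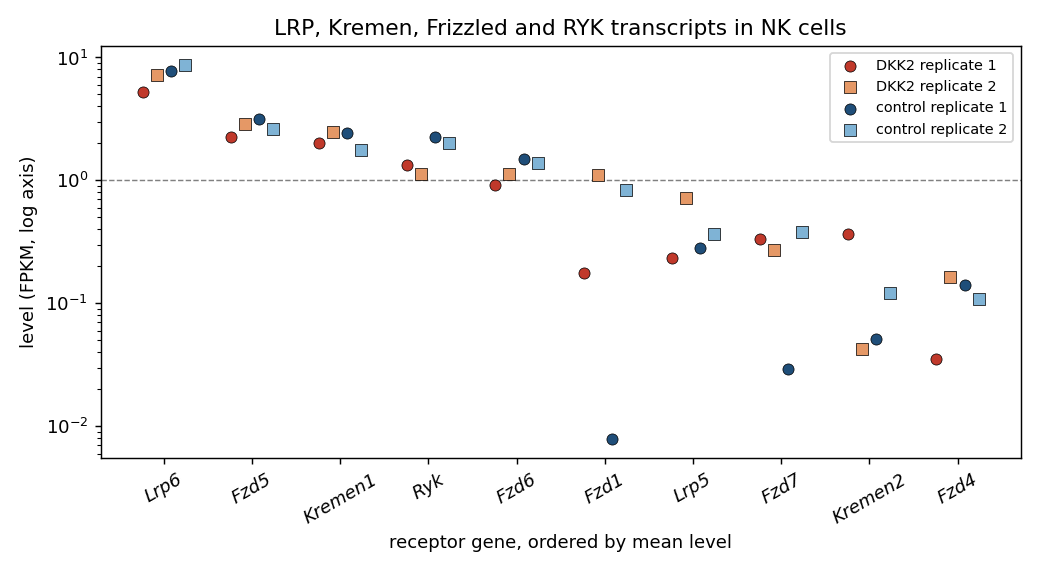
Level of each receptor gene in each library (FPKM, logarithmic axis), ordered by the mean over the 4 libraries. Red and orange points are the DKK2 libraries, blue points the controls, and the dashed line marks 1 FPKM. Lrp6 lies above the other genes in every library, and Fzd1 and Fzd7 fall far lower in control replicate 1 than elsewhere.

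Lrp6, a co-receptor bound by DKK2, measured 5.21 and 7.14 FPKM in DKK2-treated cells, against 7.77 and 8.74 FPKM in mock-treated cells. Both DKK2 libraries were below both controls, but DKK2 replicate 2 came close to control replicate 1. The log2 difference, on the log2(FPKM + 1) scale and as DKK2 minus control, was -0.38 ± 0.28 (SE), with a 95% interval of -1.11 to 0.35. It did not pass limma (adjusted p = 1, Benjamini-Hochberg over 12275 tested genes). The interval admits a fall as well as a small rise.

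Lrp5, the second co-receptor, was far lower than Lrp6. It measured 0.233 and 0.718 FPKM in DKK2-treated cells, against 0.285 and 0.368 FPKM in mock-treated cells, and DKK2 replicate 1 was the lowest and DKK2 replicate 2 the highest of the 4 libraries. Lrp6 exceeded Lrp5 by factors of 22.4 and 9.95 in the DKK2 libraries, against 27.3 and 23.8 in the controls. The factor in DKK2 replicate 2 stands below the other 3, which lie close together. Lrp5 was under the filter of 1 FPKM for testing. In a fit without that filter its difference was 0.13 ± 0.20 (SE), with an interval of -0.50 to 0.77 (limma adjusted p = 1). The difference turned to -0.10 without DKK2 replicate 2 and was 0.37 without DKK2 replicate 1.

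Of the Kremen genes, Kremen1 measured 2.02 and 2.49 FPKM in DKK2-treated cells, against 2.42 and 1.77 FPKM in mock-treated cells. The groups overlapped, and the difference was 0.08 ± 0.34 (SE), with an interval of -0.80 to 0.96 (limma adjusted p = 1). Its sign turned with quantile normalization (-0.02), without DKK2 replicate 2 (-0.03) and without control replicate 2 (-0.07).

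Kremen2 measured 0.367 and 0.0429 FPKM in DKK2-treated cells, against 0.0516 and 0.122 FPKM in mock-treated cells. For 4 low receptors with a single annotated transcript (Kremen2, Fzd1, Fzd4 and Fzd7), the ratios between libraries come out as whole numbers of fragments within 0.02 of a fragment, once the relative depths are taken out. The counts given are the smallest such set, and their intervals cover counting error only. The true counts could be a multiple of such a set, with narrower intervals. Kremen2 then rested on 17 and 2 fragments in DKK2-treated cells, against 6 and 5 fragments in mock-treated cells. Its level in DKK2 replicate 1 had a Poisson 95% interval of 0.214 to 0.587 FPKM, above the intervals of DKK2 replicate 2 (0.00519 to 0.155 FPKM) and control replicate 1 (0.0189 to 0.112 FPKM). It overlapped that of control replicate 2 (0.0397 to 0.286 FPKM). Summed markers were highest in that same library for neutrophils, monocytes and macrophages, T cells, dendritic cells and NK cells. Single markers were split. Lyz2 gave 552 FPKM of the monocyte and macrophage sum of 757 FPKM there, and Gzma 24308 FPKM of the NK cell sum of 35951 FPKM. Csf1r, Emr1, Cd14, Cd68, Fcgr1 and Mpeg1 were higher in DKK2 replicate 2, as were all T cell markers except Cd3d and Cd3g. The neutrophil sums were 3517 and 124 FPKM in DKK2-treated cells, against 1.04 and 63.6 FPKM in mock-treated cells. The part of these cells in the Kremen2 level was not tested.

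Among the Frizzled receptors, Fzd5 and Fzd6 made up most of the signal. Over all 10 Frizzled genes the summed level was 3.82 and 5.64 FPKM in DKK2-treated cells, against 5.12 and 5.46 FPKM in mock-treated cells. Fzd5 alone held 59.6% and 50.6% of it in DKK2-treated cells, against 62.1% and 48.0% in mock-treated cells. Fzd6 held 24.3% and 20.1% in DKK2-treated cells, against 29.1% and 25.4% in mock-treated cells. The Frizzled genes outside the 10 receptors (Fzd2, Fzd3, Fzd8, Fzd9 and Fzd10) were each below 0.15 FPKM in every library, and Fzd2 was listed at 0 in all 4.

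Fzd5, which can transduce the beta-catenin signal, measured 2.27 and 2.85 FPKM in DKK2-treated cells, against 3.18 and 2.62 FPKM in mock-treated cells. The groups overlapped (difference -0.13 ± 0.32 SE, interval -0.96 to 0.69, limma adjusted p = 1). Fzd6, known for its part in planar cell polarity, measured 0.925 and 1.13 FPKM in DKK2-treated cells, against 1.49 and 1.39 FPKM in mock-treated cells. Both DKK2 libraries were below both controls, with a difference of -0.27 ± 0.37 (SE) and an interval of -1.21 to 0.68 (limma adjusted p = 1).

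Fzd1 varied most among the 10. It measured 0.178 and 1.11 FPKM in DKK2-treated cells, against 0.00788 and 0.830 FPKM in mock-treated cells. These levels rested on 18 and 113 fragments with DKK2, against 2 and 74 fragments with mock treatment. Both libraries numbered 2 were high and both numbered 1 were low, so the spread within a group was wider than the gap between the groups. The Poisson 95% intervals of the controls, 0.000954 to 0.0285 FPKM in replicate 1 and 0.652 to 1.04 FPKM in replicate 2, did not overlap. Nor did those of the DKK2 libraries, 0.105 to 0.281 FPKM in replicate 1 and 0.915 to 1.33 FPKM in replicate 2.

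The summed markers of B cells ranked the 4 libraries in the order of Fzd1, at 223 and 503 FPKM in DKK2-treated cells, against 42.7 and 347 FPKM in mock-treated cells. So did those of stroma and endothelium, at 0.916 and 3.59 FPKM in DKK2-treated cells, against 0.175 and 1.93 FPKM in mock-treated cells, and those of erythroid cells and platelets, at 9.73 and 22.5 FPKM in DKK2-treated cells, against 0.356 and 16.2 FPKM in mock-treated cells. Of the single markers, 7 of 8 for B cells, 3 of 8 for stroma and endothelium, 2 of 7 for erythroid cells and platelets and 4 of 8 for T cells followed that order. All 8 B cell markers were lowest in control replicate 1, where the B cell gene Pax5 was at 9.1e-05 FPKM. The stroma and endothelium sum rested mostly on the endothelial genes Kdr and Vwf in every library except control replicate 1. There the collagen gene Col1a2 gave 0.158 of 0.175 FPKM. Col1a2 was above 0 in every library and did not follow the order of Fzd1. The collagen gene Col1a1 was listed at 0 in every library except DKK2 replicate 1. The part of these cells in the Fzd1 level was not tested. In bulk RNA, more cells of a type and more transcript per cell cannot be told apart.

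**Figure D2:**
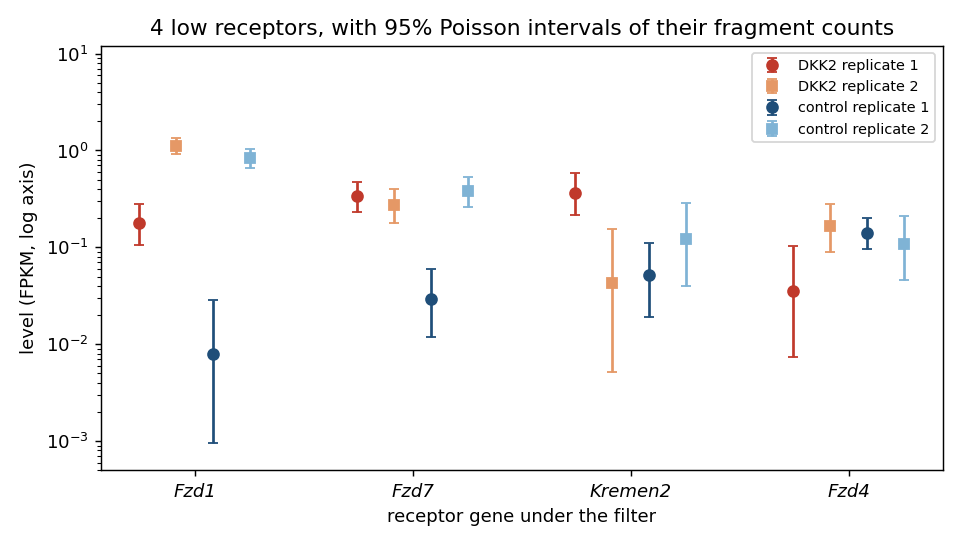
Level (FPKM, logarithmic axis) of the 4 low receptors for which whole fragments could be recovered, by library, with bars for the 95% Poisson interval of the fragment count. Fzd1 separates the libraries numbered 2 (1.11 and 0.830 FPKM) from those numbered 1, and the DKK2 and control libraries interleave.

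Fzd7 measured 0.336 and 0.271 FPKM in DKK2-treated cells (32 and 26 fragments), against 0.0293 and 0.381 FPKM in mock-treated cells (7 and 32 fragments). Control replicate 1 alone was low, with an interval of 0.0118 to 0.0603 FPKM against 0.261 to 0.538 FPKM in control replicate 2, while the other 3 libraries had overlapping intervals. Monocyte and macrophage markers were low in the same library, 10 of 10 of them lowest there and C1qa and C1qc listed at 0, with sums of 757 and 480 FPKM in DKK2-treated cells, against 8.4 and 297 FPKM in mock-treated cells. Of the T cell markers 8 of 8, and of the neutrophil markers 9 of 9, were lowest there too. The part of these cells in the Fzd7 level was not tested. Fzd4, a receptor for Wnt and for the unrelated ligand Norrin, measured 0.0355 and 0.165 FPKM in DKK2-treated cells (3 and 14 fragments), against 0.142 and 0.108 FPKM in mock-treated cells (30 and 8 fragments). The groups overlapped, as they did for Fzd1, Fzd7, Kremen2 and Lrp5. In the fit without the filter on low values, none of these 5 passed limma (adjusted p = 1 for each, unadjusted p between 0.47 and 0.69).

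**Figure D3:**
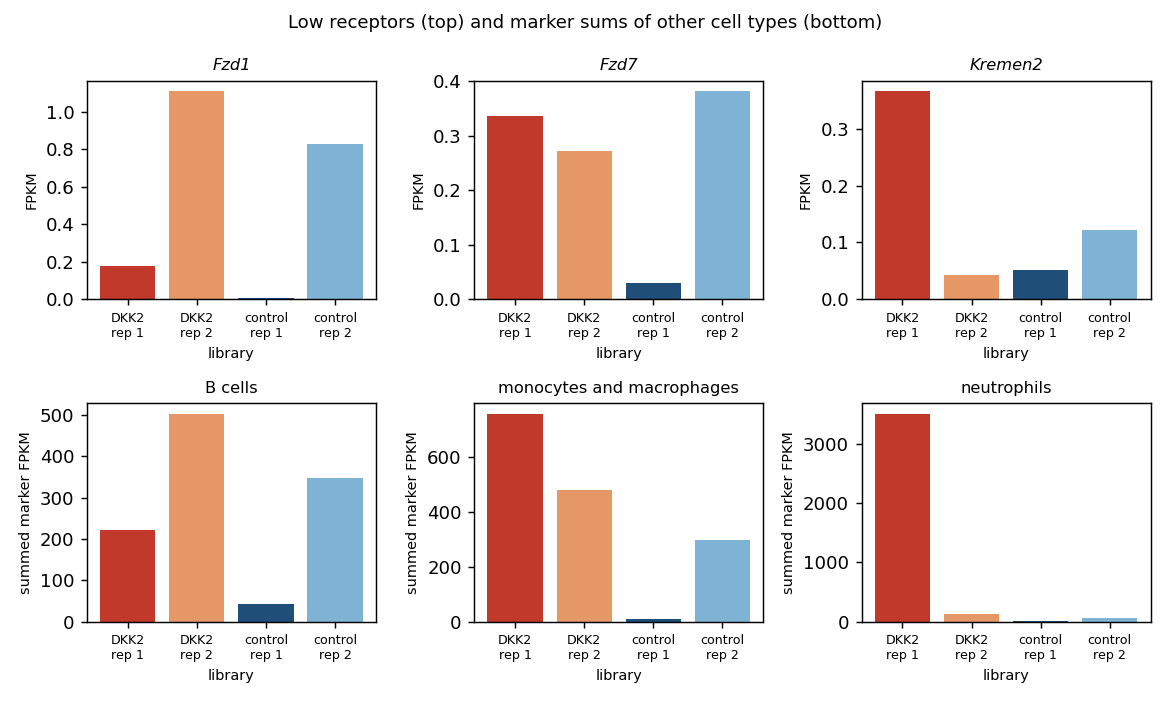
Levels of Fzd1, Fzd7 and Kremen2 (top, FPKM) and summed marker levels of B cells, monocytes and macrophages, and neutrophils (bottom, FPKM), 1 bar for each library. Control replicate 1 has the lowest bar in 5 of 6 panels, all except Kremen2, and DKK2 replicate 1 has the highest bar for Kremen2 and for both the monocyte and macrophage markers and the neutrophil markers.

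Ryk measured 1.35 and 1.12 FPKM in DKK2-treated cells, against 2.26 and 2.02 FPKM in mock-treated cells. Both DKK2 libraries were below both controls, and the mean level with DKK2 was 0.577 of the control mean. The difference was -0.49 ± 0.35 (SE), with an interval of -1.38 to 0.40. With all 4 libraries it was the largest of the 5 receptors tested, but without DKK2 replicate 2 that of Lrp6 was larger (-0.57, against -0.42 for Ryk), and without control replicate 1 the values were -0.45 for Lrp6 and -0.44 for Ryk. It did not pass limma (adjusted p = 1, unadjusted p = 0.21).

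Over the 5 receptors tested, 0 passed limma at an adjusted p under 0.05, and 0 had an unadjusted p under 0.05. Of all 12275 genes tested, limma called 0.0326%, and 1.84% had an unadjusted p under 0.05. Both DKK2 libraries lay below both controls in 3 of the 5 (Lrp6, Fzd6 and Ryk), where the share over all genes tested was 14.8%, and above both controls in 0 of the 5, against 11.8%. Without control replicate 1, both DKK2 libraries were below control replicate 2 in 3 of the 5, against 23.8% of all genes tested. That count could not fall, since a receptor below both controls is also below control replicate 2. The median difference of the 5 was -0.27, where that of all genes tested was -0.05. With 5 genes, chosen with earlier results of these data known, no test of the group was made. The summed markers of T cells, monocytes and macrophages, neutrophils and dendritic cells separated the groups in the other direction, though not every marker did. The part of these cells in the split was not tested. The smallest p that an exact permutation test of 1 gene can give in this design is 0.333.

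**Figure D4:**
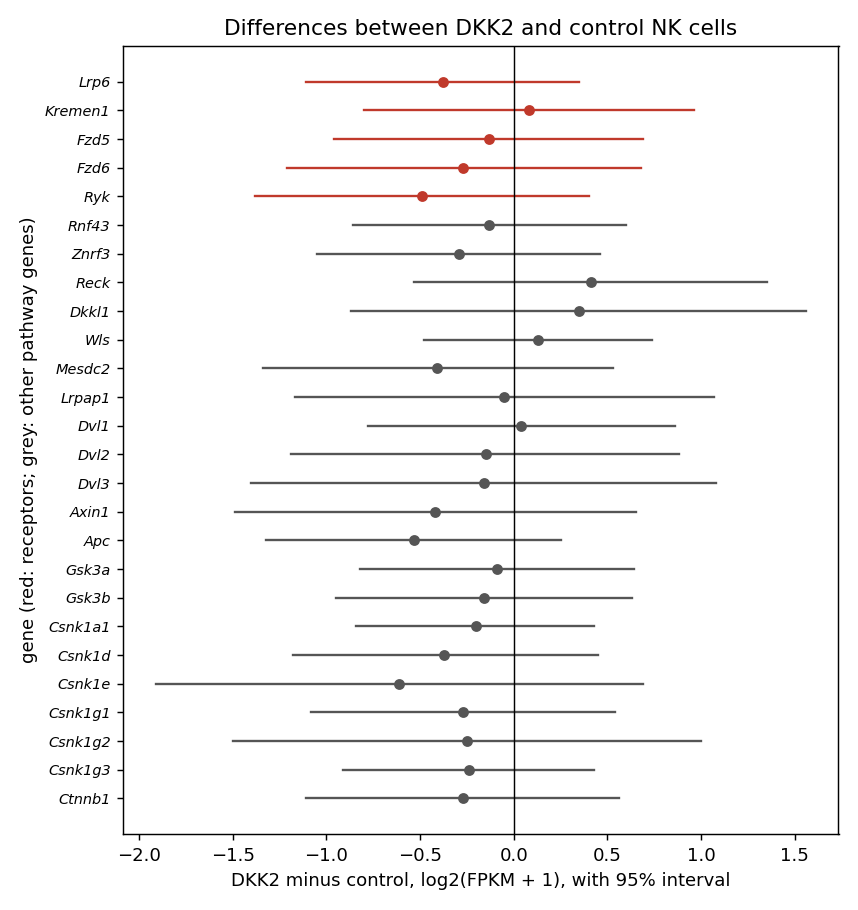
Difference between DKK2 and control libraries on the log2(FPKM + 1) scale (points) with limma's 95% interval (lines) for the 5 tested receptors in red and the 21 other tested genes of the pathway in grey. Each interval includes 0, and 4 of the 5 receptors lie left of it.

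The genes closest to Lrp6 in their values over the 4 libraries were Klf7, Shprh and Slfn9, with Euclidean distances of 0.030, 0.040 and 0.044 between log2 values centred on each gene's mean. Klf7, a zinc finger transcription factor, measured 3.23 and 4.55 FPKM in DKK2-treated cells, against 4.89 and 5.73 FPKM in mock-treated cells. Over 4 libraries this likeness is no more than a description.

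As a further description, promoter sequence was taken from RefSeq (build GRCm38.p6, not the build of the expression table) for the 6 receptors matched by symbol, Ryk, Kremen2, Fzd1, Fzd4, Fzd5 and Fzd7. The 250 bases before the start site held 33 CpG dinucleotides in Ryk and 32 in Fzd5, which were also the highest of the 6 in FPKM. Fzd4, with the lowest mean FPKM of the 10, held 25, Fzd7 17, and Fzd1 and Kremen2 12 each. The median over 32851 promoters was 6. The letters ATCAAAG, a core motif of TCF and LEF factors, were searched on both strands and found in 0 of the 6 and in 3.21% of all promoters. Ryk and Fzd1 are shown because one was present in every library and the other nearly missing from one. CpG dinucleotides are in capitals, and the sequences run 5′ to 3′ on the gene's strand, at chr9:102834670-102834919 (plus strand) for Ryk and chr5:4758217-4758466 (minus strand) for Fzd1.
Ryk: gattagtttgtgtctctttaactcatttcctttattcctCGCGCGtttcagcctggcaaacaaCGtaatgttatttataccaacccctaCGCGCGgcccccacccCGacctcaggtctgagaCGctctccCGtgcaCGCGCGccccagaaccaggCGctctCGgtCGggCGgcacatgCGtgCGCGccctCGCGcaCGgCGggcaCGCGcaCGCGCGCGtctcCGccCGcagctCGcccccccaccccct
Fzd1: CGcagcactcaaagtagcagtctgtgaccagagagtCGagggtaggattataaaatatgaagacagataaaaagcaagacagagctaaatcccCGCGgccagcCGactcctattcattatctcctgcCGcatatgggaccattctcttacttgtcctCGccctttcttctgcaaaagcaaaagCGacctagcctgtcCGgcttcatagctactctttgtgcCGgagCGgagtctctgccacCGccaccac

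Other genes at the receptor level were mostly sparse, among ligands and among regulators. A mean of at least 1 FPKM was reached by 3 of 17 other receptors and regulators. Of 19 Wnt ligand genes, 0 reached a mean of 1 FPKM, 6 were listed at 0 in all libraries, and the highest single value was 0.199 FPKM for Wnt10b. Of 19 secreted modulators (the DKK, SFRP and R-spondin families and others) 1 was tested, the DKK-like gene Dkkl1, at 3.85 and 10.3 FPKM in DKK2-treated cells, against 5.09 and 4.56 FPKM in mock-treated cells (difference 0.35 ± 0.47 SE, limma adjusted p = 1). The cells' own Dkk2 transcript was at 0.0118 FPKM in DKK2 replicate 1, listed at 0 in DKK2 replicate 2, at 0.000347 FPKM in control replicate 1 and listed at 0 in control replicate 2.

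The ubiquitin ligases Rnf43 and Znrf3, which remove Frizzled receptors and LRP6 from the membrane and are opposed by R-spondins, were above every Frizzled gene in each library. Rnf43 measured 9.86 and 13.3 FPKM in DKK2-treated cells, against 13.9 and 11.4 FPKM in mock-treated cells (difference -0.13 ± 0.28 SE). Znrf3 measured 2.97 and 3.59 FPKM in DKK2-treated cells, against 4.15 and 4.32 FPKM in mock-treated cells (-0.29 ± 0.29 SE), both DKK2 libraries being below both controls. Reck, a membrane-anchored co-receptor for some Wnt ligands, measured 2.56 and 4.32 FPKM in DKK2-treated cells, against 2 and 2.56 FPKM in mock-treated cells (0.41 ± 0.36 SE). These 3 were the tested genes among 17 other Wnt receptors and regulators, and 0 of them passed limma (0 also at an unadjusted p under 0.05). The remaining 14, among them Ror1, Ror2, Ptk7 and Lgr4 to Lgr6, were at most 0.176 FPKM.

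Chaperones of the co-receptors were plentiful. Mesdc2, which folds LRP5 and LRP6 in the endoplasmic reticulum, measured 33.1 and 56.0 FPKM in DKK2-treated cells, against 67.6 and 48.7 FPKM in mock-treated cells (-0.41 ± 0.36 SE, limma adjusted p = 1). Wls, the carrier that brings Wnt ligands to the surface, measured 16.8 and 15.9 FPKM in DKK2-treated cells, against 14.2 and 15.4 FPKM in mock-treated cells (0.13 ± 0.24 SE). Porcn, the acyltransferase that lipidates Wnt, was listed at 0 in both libraries numbered 1 and was at 0.329 FPKM in DKK2 replicate 2 and 0.418 FPKM in control replicate 2.

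The cytoplasmic partners of the receptors were well expressed, and 14 of 15 were tested. Of these 0 passed limma in either direction (0 also at an unadjusted p under 0.05), 13 had a difference below 0 and 1 above it, with a median of -0.24, where 56.4% of all genes tested had a difference below 0. Both DKK2 libraries lay below both controls in 3 of the 14 (Apc, Csnk1a1 and Csnk1g3), where the share over all genes tested was 14.8%. DKK2 replicate 1 was the lowest library for 13 of the 14, as it was for 37.1% of all genes tested and for 3 of the 5 tested receptors. A single row, mmu-mir-703, took 25.7% and 8.44% of all FPKM in the DKK2 libraries, against 11.8% and 17.1% in the controls. The factors of a median-ratio rescaling ran from 0.967 (DKK2 replicate 1) to 1.06 (control replicate 1). The part of that row in the low values of DKK2 replicate 1 was not tested. The scaffold Axin1 was among the genes lowest there, at 29.99 and 60.1 FPKM in DKK2-treated cells, against 67.2 and 48.7 FPKM in mock-treated cells. Ctnnb1, encoding beta-catenin, measured 96.7 and 151 FPKM in DKK2-treated cells, against 157 and 137 FPKM in mock-treated cells (-0.27 ± 0.32 SE). The kinase gene Csnk1e, whose product phosphorylates Dishevelled, had the largest difference of the list, at 8.28 and 21.0 FPKM in DKK2-treated cells, against 26.0 and 16.6 FPKM in mock-treated cells (-0.61 ± 0.50 SE). Csnk1g1, a membrane-bound kinase of LRP6, measured 6.70 and 10.8 FPKM in DKK2-treated cells, against 10.2 and 10.8 FPKM in mock-treated cells. Of the Dishevelled genes, Dvl2 was the highest in the mean, at 3.72 and 6.53 FPKM in DKK2-treated cells, against 7.37 and 4.26 FPKM in mock-treated cells. Axin2, a target and brake of the beta-catenin signal, missed the filter at 0.336 and 1.35 FPKM in DKK2-treated cells, against 0.775 and 0.401 FPKM in mock-treated cells.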

How the data were processed

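RNA was made into stranded total RNA libraries, per the labels' protocols, for 2 DKK2 and 2 control samples. The deposited table holds 1 FPKM column per library, per the file headers, although the table is named for RPKM. Tools listed in the submitters' processing notes are edgeR, CASAVA, Cuffdiff 2.1.0 and TopHat2 2.1.0, with the build mm9. The annotation, strand use and handling of multiply mapped fragments are not given in the sources used here. Each of the 4 columns matched a sample by name, and 0 value columns were left aside. Without strand, fragments of overlapping genes (such as Fzd4 and Tmem135 in RefSeq) may be shared.

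DKK2 and control libraries were compared on log2(FPKM + 1), which understates changes of low genes, by limma 3.58.1 (R 4.3.3), with eBayes and a mean trend, two-sided, over the 12275 rows with a mean of at least 1 FPKM. The script was tested on simulated data. Where 2 rows shared a symbol, the one with the higher mean was used. Relative depth is the most frequent ratio between libraries among rows under 0.3 FPKM. Whole fragments were sought with up to 60 in control replicate 1. Of 3545 low rows, 28.6% gave such a set. Poisson intervals were computed with SciPy 1.17.1. Named genes are the 10 receptors and the list members with a mean of at least 1 FPKM, plus the 3 genes most like the highest receptor, and further low list members named after their values were seen. The receptors, lists and markers were chosen with earlier results of these data known.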

Additional observations from a re-analysis of the deposited data

How the results depend on the processing

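The number of genes called by limma was 4 of 12275 as reported. It was 5 with a pseudocount of 0.1, with median-ratio rescaling and with quantile normalization, 0 of 22869 without the filter on low values (949 at an unadjusted p under 0.05), and 0 in each of the 4 fits to 3 libraries (150 to 855 genes with an unadjusted p under 0.05). With the replicate number as a block it was 8, and 383 genes had an unadjusted limma p under 0.05, against 226 as reported. Across the genes tested, the deviations of same-numbered libraries from their group means were close to uncorrelated (r = 0.012). The libraries most alike across genes were DKK2 replicate 2 and control replicate 2 (Pearson r = 0.923). DKK2 replicate 1 and control replicate 1 stood at 0.883, against 0.891 within the DKK2 group and 0.905 within the control group. The numbers were not taken to pair the libraries, although the libraries numbered 2 and single genes such as Fzd1 and Porcn followed them. The replicate block fit gave no receptor an adjusted p under the threshold.

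The differences of Lrp6, Fzd5, Fzd6 and Ryk kept their sign under all 9 alternatives. They lay between -0.57 and -0.18 for Lrp6, -0.25 and -0.02 for Fzd5, -0.47 and -0.19 for Fzd6 and -0.75 and -0.42 for Ryk. Part of this was fixed in advance. The fits without the filter and with the replicate block gave each gene the same difference as the main fit. For Lrp6, Fzd6 and Ryk, whose groups did not overlap, leaving out a library could not turn the sign. In the fits to all 4 libraries limma called none of these 4 genes. The difference of Kremen1 turned to -0.02 with quantile normalization and ranged from -0.07 to 0.23 when a library was left out; the cause of the first was not tested. No scaling moved the median of all genes by over 0.1. The count of tested receptors with both DKK2 libraries below was 3 also without control replicate 1, an alternative chosen after seeing the data. Leaving out a control could not lower this count. For Kremen2, Fzd1, Fzd4 and Fzd7 the pseudocount of 0.1 moved the untested difference to 0.49, 0.87, -0.24 and 0.69, against 0.14, 0.22, -0.03 and 0.13. For Lrp5 it moved the difference to 0.30, against 0.13. Few fragments limit Kremen2 and Fzd1, if the smallest whole-number sets hold. Kremen2 had 2 fragments in DKK2 replicate 2, and Fzd1 had 2 in control replicate 1, the deepest library.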
